A study of Mus musculus with 8 samples.

Results

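The 32 genes described here encode the machinery with which a cell makes, takes up, moves and stores cholesterol. They were chosen by name from a list of sterol synthesis, uptake and trafficking genes, not by their measured values, although earlier results of these data were known. All 32 were found among the 21859 gene rows of each deposited file. The 20 synthesis enzymes among them carry acetyl-CoA to cholesterol: 8 in the mevalonate and isoprenoid steps, 3 between squalene and lanosterol, and 9 after lanosterol. The other 12 control the pathway (4 genes), take up lipoproteins (2), move or store cholesterol (4) or make oxysterols (2).

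RNA was sequenced from total aortas of 8 male mice at an age of 40 weeks, kept on a normal (chow) diet. Of these, 4 were ApoE-/-, lacking apolipoprotein E in every cell from birth, and 4 were WT. WT mice were C57BL/6, the background on which the ApoE-/- line is kept. Each mouse gave 1 library of ribosome-depleted, stranded total RNA. Whether fat, nerves and ganglia around the vessel were removed before the RNA was taken is not given in the sources used here.

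Cholesterol synthesis starts with the joining of acetyl-CoA units and runs through mevalonate, isoprenyl diphosphates, squalene and lanosterol. When sterol in the endoplasmic reticulum falls, the escort protein SCAP (Scap) carries the transcription factor SREBP2 (Srebf2) to the Golgi, where it is cleaved and sent to the nucleus, and the INSIG proteins (Insig1, Insig2) hold the complex back when sterol is plentiful. SREBP2 binds sterol regulatory elements, often beside CCAAT boxes bound by NF-Y, and so moves the genes of the whole pathway together. In the atherosclerotic wall, macrophages take up lipoprotein cholesterol, pass it out of the lysosome with NPC1 and NPC2, and store it as esters made by the acyltransferase SOAT1.

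The bases before the start of 4 members are shown because the first 3 belong to enzymes that were highest in ApoE-/- replicate 1, and the fourth belongs to Soat1, which was not. Sequences are from RefSeq on GRCm38.p6 and hold the 250 bases before the annotated start, 5′ to 3′ on the gene's own strand. Capitals mark the CCAAT box (CCAAT, or ATTGG where it lies on the other strand) and, in Hmgcs1, a match to the sterol regulatory element core TCACNCCAC. They lie at chr13:119690101-119690350, plus strand (Hmgcs1), chr5:114444019-114444268, plus strand (Mvk), chr8:122443423-122443672, minus strand (Mvd) and chr1:156474329-156474578, minus strand (Soat1).
Hmgcs1: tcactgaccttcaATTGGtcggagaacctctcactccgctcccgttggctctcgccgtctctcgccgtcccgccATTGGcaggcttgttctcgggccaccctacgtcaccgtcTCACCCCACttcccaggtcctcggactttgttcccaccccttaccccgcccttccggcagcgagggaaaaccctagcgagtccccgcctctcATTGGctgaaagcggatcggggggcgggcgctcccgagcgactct
Mvk: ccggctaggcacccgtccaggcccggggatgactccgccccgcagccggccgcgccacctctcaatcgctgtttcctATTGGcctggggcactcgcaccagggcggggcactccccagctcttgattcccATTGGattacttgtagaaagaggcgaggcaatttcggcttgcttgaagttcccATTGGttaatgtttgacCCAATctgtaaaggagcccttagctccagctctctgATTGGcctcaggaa
Mvd: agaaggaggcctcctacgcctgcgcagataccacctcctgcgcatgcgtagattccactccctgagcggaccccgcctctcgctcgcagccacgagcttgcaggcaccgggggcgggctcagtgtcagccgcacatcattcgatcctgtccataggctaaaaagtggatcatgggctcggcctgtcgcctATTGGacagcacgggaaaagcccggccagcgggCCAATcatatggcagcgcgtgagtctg
Soat1: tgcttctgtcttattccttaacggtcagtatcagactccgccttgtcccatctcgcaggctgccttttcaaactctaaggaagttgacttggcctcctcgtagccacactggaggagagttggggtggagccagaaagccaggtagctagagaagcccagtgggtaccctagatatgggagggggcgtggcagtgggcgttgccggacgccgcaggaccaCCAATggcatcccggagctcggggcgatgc

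A promoter sequence was matched by symbol for 27 of the 32 members, 17 of them enzymes; none was matched for Npc1, Fdps, Fdft1, Stard4 and Sqle. The CCAAT box, searched on both strands, was in 23 of the 27 (85.2%) and in 16 of the 17 enzymes (94.1%). It was in 37.5% of all 27025 genes with a promoter in the table and in 40.0% of the 11839 that were also tested here. Hmgcs1, the cytosolic synthase that makes HMG-CoA, had 3 boxes. Mvk, mevalonate kinase, had 5, and Mvd, the decarboxylase that makes isopentenyl diphosphate, had 2. Soat1 had 1. Among the other enzymes highest in ApoE-/- replicate 1, Msmo1 and Hsd17b7 had 3, and Idi1, Nsdhl and Dhcr7 had 2. Pmvk, Lss, Cyp51, Tm7sf2 and Sc5d, also highest there, had 1, and Acat2 had 0. Ggps1, Lbr and Ebp, which were not highest there, had 3, 2 and 2. Box number thus did not part these enzymes. For Pmvk and Dhcr7, with several windows, the largest number is given. The element core TCACNCCAC was found in 1 of the 27, in Hmgcs1, starting 137 bases before the start, against 1.22% of all genes. These letter matches are a description of the windows and do not show that a factor was bound.

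Libraries held 23240995 to 23940156 read pairs counted on genes in ApoE-/- mice and 18375898 to 21664598 in WT mice, and each member had between 17 and 82232 counts in a library. Levels are given as CPM, the usual depth-scaled count, with TMM scaling of the library sizes, and genotypes were compared on the counts with edgeR's quasi-likelihood F test over 15077 genes. Apoe itself was at 14.7 to 36.3 CPM in the ApoE-/- libraries and 536 to 857 CPM in the WT libraries, which fits the labels. One library stood apart. Pearson's r of log2 CPM between ApoE-/- replicate 1 and the other ApoE-/- libraries was 0.849 to 0.903, against 0.951 to 0.971 among those 3 and 0.979 to 0.989 among WT libraries. It had the highest level of sympathetic neuron genes and the lowest level of smooth muscle genes of the 8, with tyrosine hydroxylase (Th) at 932 CPM against at most 147 elsewhere, and smooth muscle myosin (Myh11) at 1884 CPM against 4155 to 8224. The neuron list and the Schwann cell list were chosen after these values were seen. Levels are therefore given for each mouse, and tests on the genes that the results turn on are given with and without this library.

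Compared per length of exon, the members covered a wide range of levels in WT aorta. Lrp1, a large endocytic receptor for remnant lipoproteins and many other ligands, was highest at 110.4 ± 6.0 CPM per kb (SD, n = 4). Hmgcs1 followed at 32.9 ± 13.8 CPM per kb, then Npc2, a lysosomal cholesterol carrier, at 27.1 ± 5.8, and Vldlr, the receptor for very low density lipoprotein, at 22.2 ± 3.6. These last 3 did not differ beyond their spread. The intervals of Insig1 (21.4 ± 5.4 CPM per kb) and Cyp27a1 (20.3 ± 3.7) overlapped them too. At the other end stood Dhcr7, which reduces 7-dehydrocholesterol to cholesterol, at 1.44 ± 0.22 CPM per kb, Fdps, farnesyl diphosphate synthase, at 0.558 ± 0.128, and Idi1, isopentenyl diphosphate isomerase, at 0.357 ± 0.036. The reads of the last 2 were few and shared: the Idi1 transcript matched the Gm13502 transcript with 100% identity over 684 bases, and Fdps matched transcripts of 4 other loci with 96.1% to 98.9% identity and shared 26.7% of its exon bases with Gm43738 on the same strand. Acat2 likewise matched Acat3 (97.7% over 1477 bases). Fdft1 matched Gm6781 (97.4% over 1249 bases) and Ggps1 matched Gm5630 (97.2% over 903 bases). Tm7sf2 shared 12.1% of its exon bases with Vps51 on the same strand. Levels of these 6 genes are uncertain, since reads that align to several places or lie on several genes were not counted.

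**Figure D1:**
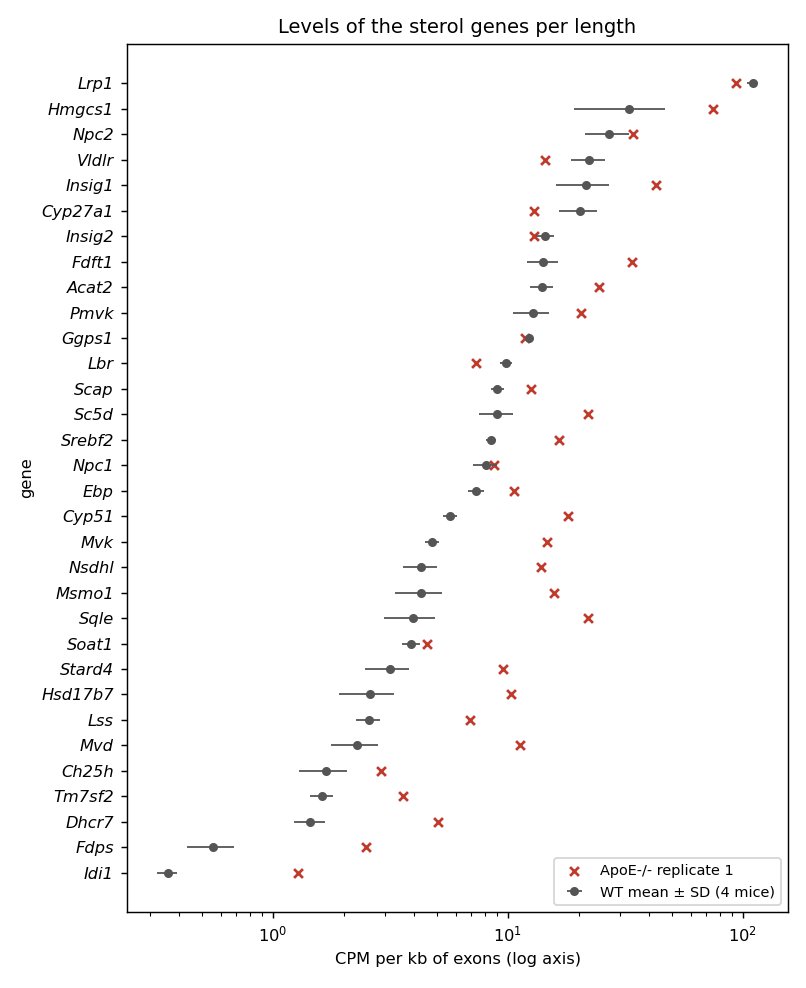
Level of each of the 32 genes in CPM per kb of exons on a log axis, with WT means and SD of 4 mice as circles and ApoE-/- replicate 1 as crosses. Most crosses of synthesis enzymes lie to the right of the WT bar, for example Sqle at 121 CPM in that mouse against 16.7 to 29.4 CPM in WT mice, while Ggps1, Lbr, Lrp1 and Vldlr do not.

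Variation between WT mice differed among the members. Ggps1, which makes geranylgeranyl diphosphate for protein prenylation, had a coefficient of variation of 3.08% over the 4 WT mice, and its level was 55.9, 59.8, 59.5 and 57.7 CPM in WT replicates 1 to 4. Hmgcs1 varied most, with a coefficient of 41.8% and levels of 222, 129.6, 75.2 and 178 CPM. WT replicate 3 was the lowest WT library for 10 of the 20 enzymes, against 28.1% of all tested genes, and WT replicate 2 the highest WT library for 10 of the 20, against 23.4%.

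The synthesis pathway was high in a single mouse. ApoE-/- replicate 1 had the highest level of all 8 mice for 17 of the 20 enzymes (26.4% of all tested genes were highest there), and at least 2 times the level of any other mouse for 12 of the 20 (7.48% of all tested genes). Averaged over the 20 enzymes, log2 CPM in this mouse was 1.31 above the gene's mean over the 8 mice, and in the other 7 mice the same average lay between -0.54 and 0.05. The difference held at every stage of the pathway, at 1.31 for the mevalonate and isoprenoid steps, 1.58 between squalene and lanosterol and 1.22 after lanosterol. A single mouse has no replicate, so these are values with no test.

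Early in the pathway, Hmgcs1 was at 342 CPM in ApoE-/- replicate 1, 82.8, 86.6 and 93.3 CPM in replicates 2 to 4, and 75.2 to 222 CPM in WT mice. Mvk was at 39.2, 9.36, 11.8 and 11.3 CPM in ApoE-/- replicates 1 to 4, and at 13.2, 13.7, 12.4 and 11.8 CPM in WT replicates 1 to 4. Mvd was at 20.9, 3.80, 4.92 and 4.60 CPM in ApoE-/- mice and 4.45, 5.34, 2.99 and 4.21 CPM in WT mice. In each of the 3 genes the first ApoE-/- mouse lay above all others. The other 3 ApoE-/- mice lay just below the WT mice in Mvk and overlapped them in Hmgcs1 and Mvd. Fdps and Idi1 had the same shape at low levels, at 10.5 and 4.46 CPM in that mouse and no higher than 3.09 and 1.42 CPM elsewhere. Pmvk, phosphomevalonate kinase, stood less far above the rest, at 35.1 CPM against 13.8 to 25.6 CPM in the other 7 mice.

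Further down, Sqle (ENSMUSG00000022351.14; chromosome 15, 59315077 to 59331192, plus strand, GRCm38), the squalene epoxidase and a rate-limiting step of the later pathway, showed the widest gap. It was at 121, 13.2, 21.3 and 14.2 CPM in ApoE-/- replicates 1 to 4 and at 21.2, 29.4, 16.7 and 20.4 CPM in WT replicates 1 to 4, so that replicate 1 stood 4.12 times above the next highest mouse. Lss, which closes the ring to lanosterol, was at 74.1 CPM in this mouse and 23.1 to 31.2 CPM in all others. Cyp51, the lanosterol demethylase, was at 80.0 CPM against 19.1 to 27.2 CPM. Fdft1, squalene synthase, was high in a pair of ApoE-/- mice, at 142, 50.2, 38.3 and 121 CPM against 49.7 to 71.4 CPM in WT mice. Fdft1 shares 18.3% of its exon bases with Ctsb (cathepsin B) on the opposite strand. Ctsb was at 1090, 1024, 1248 and 2122 CPM in ApoE-/- replicates 1 to 4 and 583 to 771 CPM in WT mice. The libraries were stranded, and the part of any Ctsb reads in the Fdft1 level was not tested.

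After lanosterol, Msmo1, the sterol methyl oxidase, was at 96.2, 18.8, 23.2 and 20.8 CPM in ApoE-/- mice and 22.1, 34.9, 23.4 and 24.7 CPM in WT mice. Hsd17b7, a keto-reductase of the same demethylation complex, was at 52.8, 6.43, 9.93 and 8.72 CPM in ApoE-/- mice and 15.3, 15.4, 8.14 and 14.1 CPM in WT mice. For both, the first ApoE-/- mouse was highest, WT replicate 2 came next and ApoE-/- replicate 2 was lowest. Nsdhl (39.6 CPM against 8.27 to 14.2 CPM), Sc5d (107 against 29.5 to 48.1 CPM), Dhcr7 (29.4 against 6.59 to 11.7 CPM) and Tm7sf2 (15.8 against 6.24 to 8.19 CPM) had the same mouse on top.

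The enzymes Ggps1, Lbr and Ebp were not among these 17. Ggps1, whose product leaves the sterol branch, was at 53.0 to 59.5 CPM in ApoE-/- mice and 55.7 CPM in replicate 1. Lbr, a nuclear envelope protein with the same sterol reductase activity as Tm7sf2, was lowest of all 8 mice in replicate 1, at 34.9 CPM against 39.4 to 49.5 CPM. Ebp, the sterol isomerase, was at 24.5 CPM in replicate 1 and 25.1 CPM in replicate 4, against 13.9 to 18.7 CPM in the others. Of the genes that control the pathway, Srebf2 (118 CPM against 43.9 to 66.6 CPM), Scap (93.5 against 61.8 to 76.3 CPM) and Insig1 (131 against 37.9 to 106 CPM) were also highest in replicate 1, and Insig2 was lowest there, at 44.8 CPM against 45.3 to 63.9 CPM. Stard4, a soluble sterol carrier, went with the enzymes, at 53.3, 9.45, 14.4 and 9.37 CPM in ApoE-/- mice and 15.3, 23.0, 14.8 and 17.1 CPM in WT mice.

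**Figure D2:**
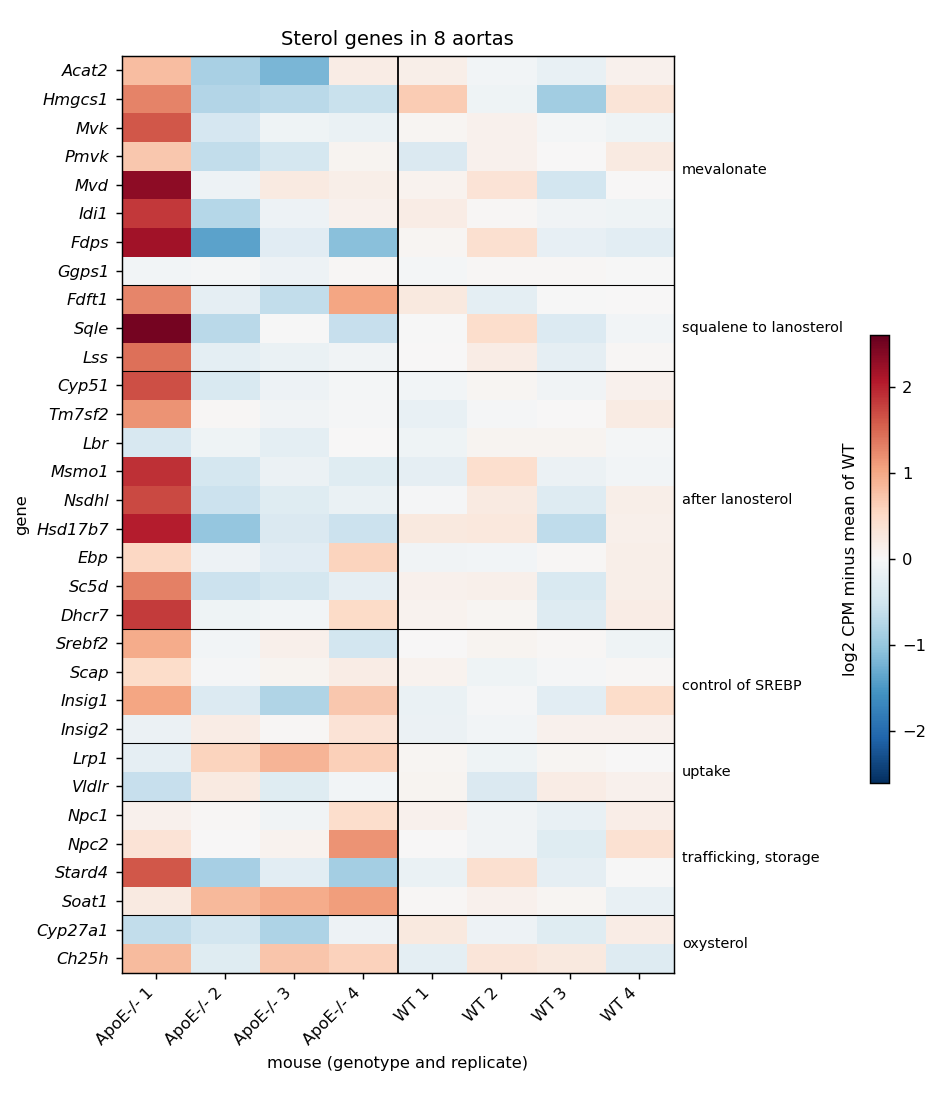
Log2 CPM of the 32 genes in each of the 8 mice minus the mean of the 4 WT mice, as colours from blue (below) to red (above), with genes ordered by role and the genotypes parted by a vertical line. The first column, ApoE-/- replicate 1, is red for 17 of the 20 enzymes that were highest there, whereas Soat1 and Lrp1 are red in ApoE-/- replicates 2 to 4.

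The level of sympathetic neuron genes differed between the same mice. Summed over 8 genes of that list, it was 3728 CPM in ApoE-/- replicate 1, 642 CPM in WT replicate 2, 469 CPM in WT replicate 4, 343 CPM in WT replicate 1, 258 CPM in ApoE-/- replicate 3, 161 CPM in WT replicate 3, 56.3 CPM in ApoE-/- replicate 4 and 18.2 CPM in ApoE-/- replicate 2. All 8 genes were tested, none was at 0 in every library and none passed the genotype test with all 8 mice. In the average over the 20 enzymes, ApoE-/- replicate 1 was also highest (1.31), followed by WT replicates 2 (0.05), 4 (-0.01) and 1 (-0.03), ApoE-/- replicate 4 (-0.13), WT replicate 3 (-0.29) and ApoE-/- replicates 3 (-0.36) and 2 (-0.54). ApoE-/- replicates 3 and 4 and WT replicate 3 thus stood in the reverse order in the neuron sums and in the enzymes. For 8 of the 20 enzymes, ApoE-/- replicate 1 was the highest and WT replicate 2 the second highest mouse (8.77% of all tested genes), and for 11 of the 20 ApoE-/- replicate 2 was the lowest (11.9%). A summed list of 8 Schwann cell genes was at 656 CPM in ApoE-/- replicate 1, 93.6 to 157 CPM in the other ApoE-/- mice and 235 to 499 CPM in WT mice. Genes of the adrenal cortex, a steroid-making tissue, summed to 12.0 to 15.3 CPM in ApoE-/- mice and 12.7 to 16.9 CPM in WT mice, and its side-chain cleavage enzyme Cyp11a1 was at 0.0871 to 1.24 CPM. Liver genes summed to 0.305 to 1.94 CPM, with albumin (Alb) at 0 to 0.843 CPM. The part of nerve tissue in the enzyme levels was not tested, and in bulk RNA a larger share of one kind of cell and more RNA of these genes per cell cannot be told apart.

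**Figure D3:**
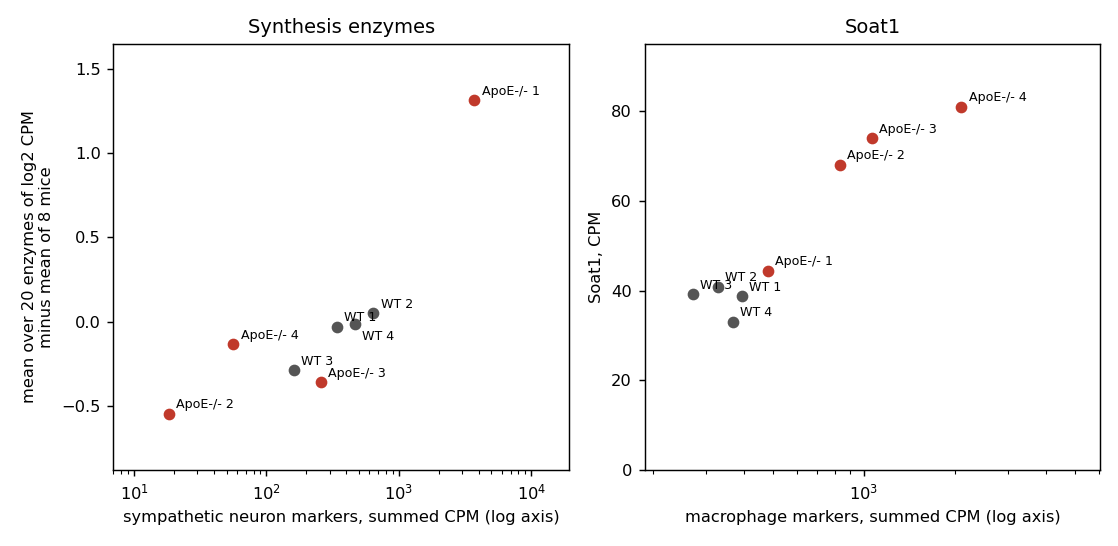
Left, the average over the 20 synthesis enzymes (log2 CPM minus the gene's mean over 8 mice) against the summed CPM of 8 sympathetic neuron genes on a log axis; right, Soat1 CPM against the summed CPM of 12 macrophage genes on a log axis. Each point is 1 mouse, red for ApoE-/- and grey for WT; ApoE-/- replicate 1 lies at 3728 CPM and 1.31 on the left, and ApoE-/- replicates 2 to 4 lie at 68.1 to 81.0 CPM of Soat1 on the right.

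Between the genotypes, with all 8 mice, edgeR called 0 of the 32 members at an adjusted p under 0.05, where it called 0.464% of all tested genes. At an unadjusted p under 0.05 edgeR gave 2 members, Soat1 higher and Cyp27a1 lower in ApoE-/- mice, or 6.25% against 11.4% of all tested genes. DESeq2 called 1 of 32, Soat1 (4.29% of its genes), and had 3 members under an unadjusted p of 0.05, the third being Lrp1 (10.6% of its genes). DESeq2 gave no p for Sqle, Stard4, Hsd17b7 and Fdps, in which it marked an outlying count. limma-voom called 0 (0.192% of all tested genes), with 2 under an unadjusted p of 0.05 (6.25% against 11%). With the replicate number as a block, edgeR called 0 members (0.0133% of all tested genes). Over the 20 enzymes the median log2 fold change was 0.49, with 15 above 0 (75%), against 0.05 over all tested genes, of which 58% lay above 0. The sign of this median rested on ApoE-/- replicate 1. Without that mouse the median over the enzymes was -0.23, with 16 of 20 below 0, and over all tested genes 0.00459, with 49.2% below 0.

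Soat1 (ENSMUSG00000026600.12; chromosome 1, 156424525 to 156474331, minus strand, GRCm38) was the 1 member whose genotypes did not overlap (5.41% of all tested genes lay higher without overlap and 3.3% lower). It was at 44.5, 68.1, 74.0 and 81.0 CPM in ApoE-/- replicates 1 to 4 and 38.8, 40.9, 39.3 and 33.1 CPM in WT replicates 1 to 4. The lowest ApoE-/- value was again that of replicate 1, close to the WT mice. On the log2 scale the ApoE-/- mice were higher by 0.82 (SE 0.18), with an adjusted p of 0.097 in edgeR and 0.00734 in DESeq2. Without ApoE-/- replicate 1, Soat1 rose by 0.97 (SE 0.11, edgeR adjusted p = 0.00636) and was the only member that edgeR called, 1 of 32 where 3.91% of all tested genes passed. DESeq2 with 1 mouse left out at a time called Soat1 in 6 of 8 fits, and missed it without ApoE-/- replicate 4 (adjusted p = 0.0539) and without WT replicate 4 (adjusted p = 0.0749).

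Macrophage genes lay on the same side as Soat1. All 12 macrophage markers were higher in ApoE-/- mice without overlap, with summed levels of 481 to 2103 CPM against 271 to 394 CPM, and with all 8 mice edgeR called 2 and DESeq2 9 of the 12 (0.464% and 4.29% of all genes). Without ApoE-/- replicate 1, edgeR called 9 and DESeq2 12 (3.91% and 9.19%). Cd68 was at 12.7, 25.4, 37.9 and 64.3 CPM in ApoE-/- replicates 1 to 4, the same order as Soat1, and at 5.54 to 9.09 CPM in WT mice. Mrc1, of the same list, did not keep this order, at 81.5, 112, 97.3 and 259 CPM. Among WT mice Soat1 was lowest in replicate 4 (33.1 CPM) and Cd68 in replicate 3 (5.54 CPM). The part of macrophage number in the Soat1 level was not tested. Npc2, which hands cholesterol to NPC1 in the lysosome, was at 185, 146, 155 and 327 CPM in ApoE-/- mice. In WT mice it was at 147, 136, 116 and 190.3 CPM. Its highest value was in ApoE-/- replicate 4, the library with most macrophage transcript. Replicate 1, with the lowest macrophage sum of the ApoE-/- mice (481 CPM), had their second highest Npc2 level. Among WT mice Npc2 was highest in replicate 4 and the macrophage sum in replicate 1 (394 CPM). The log2 fold change of Npc2, 0.46, did not pass (SE 0.28, edgeR adjusted p = 0.647), nor did 0.50 without ApoE-/- replicate 1 (SE 0.30, edgeR adjusted p = 0.432). Npc1, the membrane protein of the same step, was at 85.8 to 124 CPM in ApoE-/- mice and 79.3 to 103 CPM in WT mice, and its log2 fold change of 0.14 was no larger than its SE of 0.14.

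Lrp1 (ENSMUSG00000040249.15; chromosome 10, 127538161 to 127621148, minus strand) was at 1651, 2914, 3582 and 2995 CPM in ApoE-/- replicates 1 to 4 and at 2034, 1806, 2030 and 1956 CPM in WT replicates 1 to 4. ApoE-/- replicates 2 to 4 lay above every WT mouse and replicate 1 lay below them all. With 8 mice the log2 difference of 0.51 (SE 0.26) had an adjusted p of 0.536 in edgeR and 0.356 in DESeq2. Without replicate 1 it was 0.70 (SE 0.16), which edgeR did not call (adjusted p = 0.0603) and DESeq2 did (adjusted p = 1.8e-07), one of 2 members DESeq2 called in that fit beside Soat1 (9.19% of its genes). Fibroblasts are known to express Lrp1. Their genes summed to 2126 CPM in ApoE-/- replicate 1 and 3814 to 5526 CPM in replicates 2 to 4. In WT mice the sum was 2324 to 2641 CPM. Smooth muscle genes summed to 4763 CPM, 12051 to 19566 CPM and 10600 to 19965 CPM in the same order. Macrophage genes lay higher in all ApoE-/- mice. The part of these cells in the Lrp1 level was not tested. Vldlr overlapped between genotypes, at 145, 259, 177 and 211 CPM in ApoE-/- mice and 233, 169.7, 253 and 237 CPM in WT mice (log2 fold change -0.17, SE 0.21, edgeR adjusted p = 0.833), and its log2 fold change was -0.05 without replicate 1 (SE 0.18, edgeR adjusted p = 0.936).

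Cyp27a1 (ENSMUSG00000026170.6; chromosome 1, 74713574 to 74737892, plus strand), the mitochondrial sterol 27-hydroxylase that turns cholesterol into an oxysterol, was at 28.0, 31.3, 25.0 and 39.5 CPM in ApoE-/- mice and 52.2, 39.7, 35.0 and 49.5 CPM in WT mice. ApoE-/- replicates 1 to 3 lay below all WT mice and replicate 4 lay among them. Its log2 fold change was -0.51 (SE 0.18), with an unadjusted p of 0.0226 and an adjusted p of 0.304 in edgeR. DESeq2 called it only without ApoE-/- replicate 4 (adjusted p = 0.0272). Some markers of other cells also lay on the lower side in ApoE-/- mice. Of 8 endothelial genes, 3 lay below WT without overlap, but the summed levels overlapped, at 1697 to 2558 CPM against 2373 to 2939 CPM. Of 8 cardiac muscle genes, 7 lay below WT without overlap, with sums of 160 to 342 CPM against 414 to 717 CPM. Among all tested genes 3.3% lay lower without overlap. The endothelial gene Erg lay on the higher side (log2 fold change 0.15, SE 0.24). Ryr2, the other cardiac gene, barely changed (-0.02, SE 0.31). All 12 macrophage markers lay higher. The part of these cells in the Cyp27a1 level was not tested. Ch25h, the cholesterol 25-hydroxylase, was at 4.02, 1.84, 3.79 and 3.47 CPM in ApoE-/- mice and 1.93, 2.86, 2.71 and 1.82 CPM in WT mice, with overlap (log2 fold change 0.49, SE 0.29, edgeR adjusted p = 0.635), and without replicate 1 the adjusted p was 0.586 (log2 fold change 0.38, SE 0.31).

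**Figure D4:**
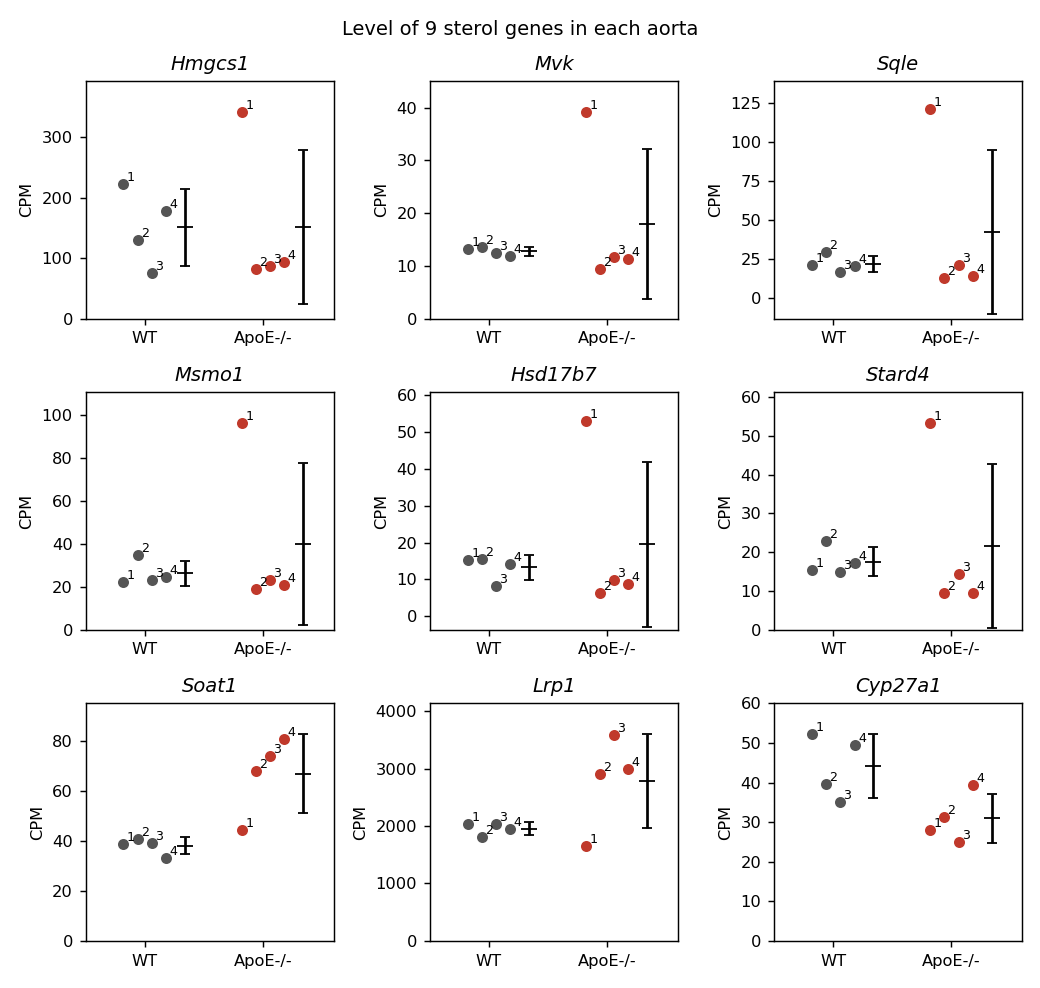
CPM of 9 genes in each mouse, numbered by replicate, with the mean and SD of each genotype (n = 4) beside the points; where the SD exceeds the mean its bar runs below 0. In Hmgcs1, Mvk, Sqle, Msmo1, Hsd17b7 and Stard4 the first ApoE-/- mouse lies above all others, and in Soat1 all 4 ApoE-/- mice lie above the WT mice.

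In the 3 remaining ApoE-/- mice the enzymes were on the lower side of WT. Their average over the 20 enzymes was -0.54, -0.36 and -0.13 in replicates 2 to 4, and -0.29 to 0.05 in WT mice, with overlap. Without replicate 1, 8 members were under an unadjusted p of 0.05 in edgeR (25.0% against 18.7% of all tested genes), 6 of them lower (6 of 32, against 8.73% of all tested genes), and none of these 6 passed the adjustment. They were Stard4 (log2 fold change -0.66, SE 0.22, edgeR adjusted p = 0.154), Sc5d (-0.43, SE 0.16, adjusted p = 0.190), Fdps (-0.87, SE 0.33, adjusted p = 0.205), Hsd17b7 (-0.66, SE 0.26, adjusted p = 0.220), Hmgcs1 (-0.79, SE 0.33, adjusted p = 0.249) and Cyp27a1 (-0.47, SE 0.20, adjusted p = 0.255). Stard4, Mvk and Fdps then lay below WT without overlap (9.38% of the members against 7.44% of all tested genes), and Soat1 and Lrp1 above it (6.25% against 9.82%). Sympathetic neuron genes were also on the lower side in these 3 mice, at 18.2 to 258 CPM against 161 to 642 CPM in WT mice, and Schwann cell genes lay below WT without overlap in their sum, at 93.6 to 157 CPM against 235 to 499 CPM. Of the 8 Schwann cell genes edgeR called 4 and DESeq2 7 without replicate 1, all lower (3.91% and 9.19% of all genes), and of the 8 neuron genes edgeR called 0, with 3 under an unadjusted p of 0.05, and DESeq2 2, Stmn2 and Hand2. The part of nerve tissue in these enzyme levels was not tested. Other members stayed close to WT, such as Ggps1 (-0.05, SE 0.08), Scap (0.07, SE 0.10) and Npc1 (0.15, SE 0.15).

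**Figure D5:**
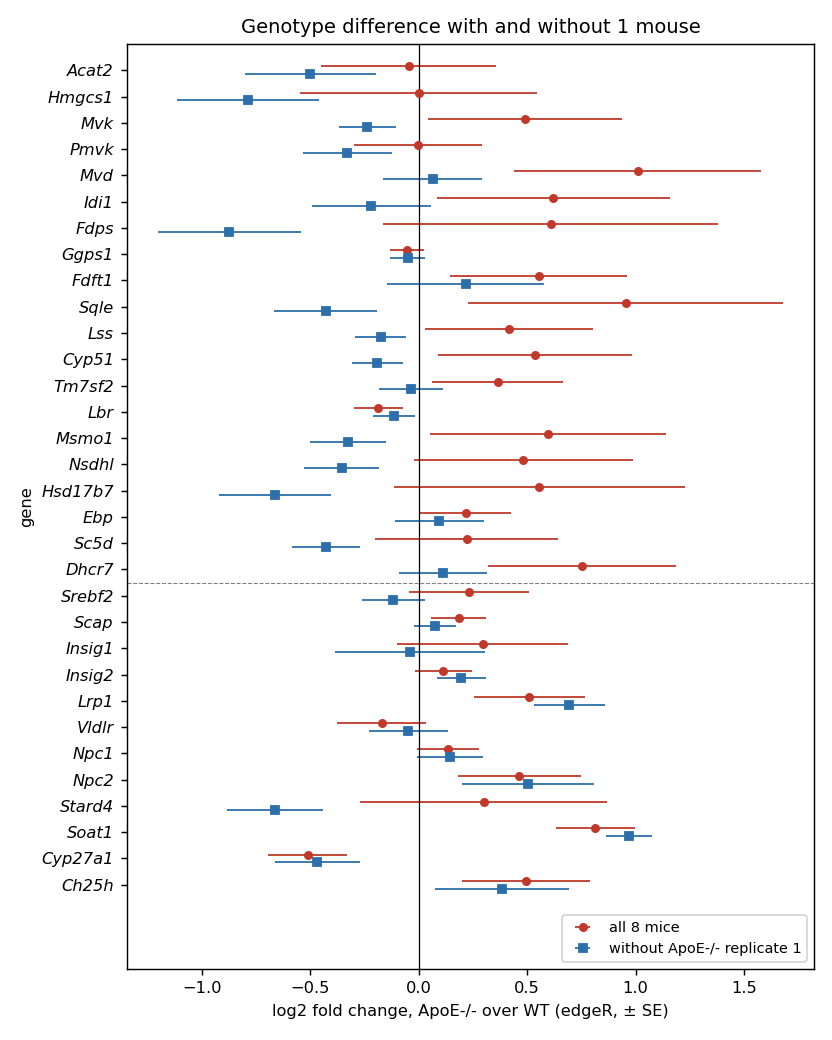
Log2 fold change of ApoE-/- over WT with its SE from edgeR for the 32 genes, with all 8 mice (circles) and without ApoE-/- replicate 1 (squares); the dashed line parts the 20 enzymes from the other genes. Sqle moves from 0.95 to -0.43 and Hsd17b7 from 0.56 to -0.66, while Soat1 (0.82 and 0.97) stays on the higher side and Cyp27a1 (-0.51 and -0.47) on the lower side.

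Adipocyte genes varied between mice of both genotypes. Over the 8 genes of the list they summed to 8286 CPM in ApoE-/- replicate 4 and 8360 CPM in WT replicate 4, against 1768 to 5696 CPM in the others. Adipoq was at 871 and 815 CPM in these 2 mice against 207 to 541 CPM in the others. Not all had this order. Ucp1 was at 1071 CPM in ApoE-/- replicate 1 and 899 CPM in replicate 4, and Lep was highest in WT replicate 1 (13.1 CPM). Insig1, which retains SCAP and is itself a target of SREBP, was second highest in ApoE-/- replicate 4 (106 CPM) and highest among WT mice in replicate 4 (90.5 CPM). Acat2, the cytosolic thiolase at the head of the pathway, was at 62.2, 19.9, 15.6 and 40.2 CPM in ApoE-/- mice and 39.4, 33.6, 31.0 and 38.4 CPM in WT mice. The part of adipocytes in these levels was not tested.

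Of 38 other genes of sterol handling that were listed for comparison, none passed an adjusted p of 0.05 in edgeR or DESeq2 with all 8 mice, and 4 were under an unadjusted p of 0.05 in edgeR, all higher in ApoE-/- mice. That is 10.5% of the list, against 11.4% of all tested genes. Without ApoE-/- replicate 1, edgeR called none and had 5 under an unadjusted p of 0.05 (13.2% against 18.7%), and DESeq2 called 2, Cyb5r3 (DESeq2 adjusted p = 0.00568) and Osbpl8 (DESeq2 adjusted p = 0.00589), where it called 9.19% of all genes. With all mice the 4 were Osbpl8, a lipid transfer protein (log2 fold change 0.32, SE 0.10, edgeR adjusted p = 0.220), Nceh1, which hydrolyses cholesteryl ester (0.93, SE 0.29, adjusted p = 0.230), Cyb5r3, an electron donor to sterol enzymes (0.35, SE 0.12, adjusted p = 0.293), and Rnf145, a ubiquitin ligase of the SCAP system (0.30, SE 0.11, adjusted p = 0.314). Nus1 had the next smallest p on the higher side (0.20, SE 0.09, adjusted p = 0.498). On the lower side, where no p was under 0.05, the genes named by the same rule were Por, the reductase that feeds CYP51 and SQLE (-0.38, SE 0.18, adjusted p = 0.512), Cyp39a1 (-0.29, SE 0.15, adjusted p = 0.526), Mbtps1 (-0.06, SE 0.11, adjusted p = 0.901) and Acat1 (-0.18, SE 0.34, adjusted p = 0.903). ApoE-/- replicate 1 was the highest mouse for 12 of the 38 genes (26.4% of all tested genes) and at least 2 times any other mouse for 1, Lrp8, an apolipoprotein E receptor, at 25.1 CPM against 3.21 to 9.71 CPM (7.48% of all tested genes).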

How the data were processed

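The authors prepared stranded total RNA libraries after ribosomal depletion and deposited, for each of the 8 mice, raw counts of read pairs per gene, without normalization. Their processing notes name TopHat2, HTSeq and the builds GRCm38 and mm10, with no versions. Pairs on genes made up 27.9% to 35.6% of all pairs in the files, and pairs on no gene, on several genes or aligned to several places were left out here.

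Gene identifiers were matched to GENCODE M21 (21817 of 21859 found, 42 not) for exon lengths and overlaps, and near-identical transcripts (at least 95% over 500 bases) were searched with BLAST 2.17.0. Counts were fitted in R 4.3.3 with edgeR 4.0.16: filterByExpr kept 15077 genes, and TMM factors, glmQLFit with robust = TRUE and glmQLFTest compared genotype alone, two-sided. The Benjamini-Hochberg adjustment ran over all tested genes, and adjusted p-values under 0.05 were called. The SE is the size of the log2 fold change divided by the square root of F. Alternatives were DESeq2 1.42.0, the study's tool, limma-voom (limma 3.58.1), other scaling factors and count filters, plain in place of robust estimation, a block for the replicate number, and each mouse left out in turn. The scripts were tested on simulated counts, in which edgeR made fewer false calls than DESeq2 in each run but also recovered fewer of the changed genes. The share of false calls went far past the threshold in each run with DESeq2, and slightly past it in some with edgeR.

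All 32 members are named. Among the 38 other sterol genes, the 5 smallest p-values in each direction are named because none passed, except 1 gene that is not reported here. The members, lists and tests were chosen with earlier results of these data known. The labels number the mice but do not name the animals or dates, so p-values measure the spread between these samples.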

Additional observations from a re-analysis of the deposited data

Results flagged for a closer look

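In a group of 4 mice, a value was marked when its gap to the nearest other mouse, divided by the range of the group, was above Dixon's 95% critical value for 4 samples. Each of the 32 members was looked at in both genotypes, and 15 of the 64 groups were marked, where chance marks about 1 in 20, or 3.2. Among all tested genes 12.2% were marked in the ApoE-/- group and 5.25% in the WT group. In 14 of the 15, ApoE-/- replicate 1 was the highest mouse (43.8% of the 32 members, against 8.75% of all tested genes). The ratio was 0.9597 for Hmgcs1 (342 CPM against 82.8 to 93.3 CPM in the other ApoE-/- mice), 0.9489 for Lss, 0.943 for Msmo1, 0.9346 for Mvd, 0.9307 for Tm7sf2, 0.925 for Sqle, 0.9245 for Hsd17b7, 0.9231 for Nsdhl, 0.9194 for Mvk, 0.9161 for Cyp51, 0.9074 for Sc5d, 0.896 for Fdps, 0.8861 for Stard4 and 0.8382 for Idi1. Of these genes 13 are synthesis enzymes and 1, Stard4, is a sterol carrier. The mice and genes are shared, so the marks are not independent of each other. The fifteenth was Sc5d in WT mice (0.9174), where replicate 3 was lowest, at 33.0 CPM against 46.9 to 48.1 CPM.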

How the results depend on the processing

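edgeR with all 8 mice called 70 genes (56 higher and 14 lower in ApoE-/- mice). DESeq2 called 721 (477 and 244), limma-voom 29 (21 and 8) and a filter of at least 10 counts in every library 50, of them 9 lower. Leaving out 1 mouse at a time gave 0 to 593 calls, 0 to 417 higher and 0 to 176 lower, with 593 without ApoE-/- replicate 1 and at most 17 without any other mouse. Of the 32 members, edgeR called 0 to 1 in these fits (0 to 1 higher, and 0 lower in each) and DESeq2, which called 1 (higher) with all mice, 0 to 2. The median log2 fold change over the 32 members was 0.39 in the main comparison and 0.17 with limma-voom, and without 1 mouse it lay between -0.11 and 0.52. Over the 20 enzymes it was 0.49 in the main comparison and 0.20 with limma-voom, and without 1 mouse -0.23 to 0.71. The lowest value of each came without ApoE-/- replicate 1, and the readings over the 20 enzymes were chosen after the data were seen.

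No pairing of the mice by replicate number was seen. The deviations of same-numbered mice correlated at 0.06, -0.45, 0.32 and 0.16, and the best WT match was another number for 3 of the 4. With so few mice this cannot show whether the samples were processed in pairs. With the replicate number as a block, 2 genes passed (1 higher, 1 lower) and 0 members, with a median of 0.16 over the members and 0.18 over the enzymes, and 3 members were under an unadjusted p of 0.05 (9.38% against 11.4% of all tested genes).

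Of 512 comparisons of a member under another setting, 474 kept the direction and the side of the threshold, 4 kept the direction with no p (Fdps, Sqle, Hsd17b7 and Stard4 in DESeq2), 2 passed it (Soat1 in DESeq2 and without ApoE-/- replicate 1) and 32 turned direction, 14 of them without ApoE-/- replicate 1. Members that turned without 1 mouse had log2 fold changes of Acat2 -0.50 to 0.20, Hmgcs1 -0.79 to 0.25, Mvk -0.24 to 0.70, Pmvk -0.33 to 0.16, Idi1 -0.22 to 0.89, Fdps -0.87 to 0.93, Sqle -0.43 to 1.25, Lss -0.18 to 0.59, Cyp51 -0.19 to 0.75, Tm7sf2 -0.036 to 0.49, Msmo1 -0.33 to 0.83, Nsdhl -0.35 to 0.71, Hsd17b7 -0.66 to 0.85, Sc5d -0.43 to 0.41, Srebf2 -0.12 to 0.41, Insig1 -0.040 to 0.53 and Stard4 -0.66 to 0.55. Fdps was at -0.13 with limma-voom and -0.16 with the block, and Stard4 at -0.090 and -0.13. Hmgcs1 (0.0072) and Pmvk (0.0015) lay above 0 with the filter of 10 counts. The cause of these turns was not tested. The other 15 members kept their direction in every setting run. With all 8 mice the SE of Fdps was the largest among the members, at 0.77. Without ApoE-/- replicate 1 it was 0.33, and that of Fdft1 was larger, at 0.36.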
